A study of Mus musculus with 10 samples.

Results

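Colony-stimulating factors are secreted proteins that bone marrow progenitors and mature myeloid cells need to survive, divide and differentiate. Macrophage colony-stimulating factor (Csf1) and interleukin-34 (Il34) both bind the receptor tyrosine kinase Csf1r, which is carried by monocytes and macrophages. Granulocyte colony-stimulating factor (Csf3) acts through Csf3r on neutrophils and their precursors, and granulocyte-macrophage colony-stimulating factor (Csf2) acts through a heterodimer of Csf2ra and the common beta chain Csf2rb. The mouse has a further beta chain, Csf2rb2, which serves interleukin-3. Tumors of the 4T1 line, a mouse mammary carcinoma, are known for the large expansion of neutrophils and of myeloid-derived suppressor cells in the animals that carry them, and colony-stimulating factors are among the signals known to drive it.

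These 4 ligands and 5 receptors were examined, chosen by name, and all 9 genes were found among the 17864 genes of the deposited count table. The samples were whole mammary tumors grown from 4T1 cells that carried Cas9 and either a control guide RNA (sgCon, 5 tumors) or a guide RNA against Wwtr1, the gene of the Hippo pathway effector TAZ (sgTaz, 5 tumors). The methods give an injection of 100000 cells, in a mammary fat pad, for female BALB/c or SCID hosts aged 6 to 8 weeks, and the host of the sequenced tumors is not stated there, nor whether the edited cells were a clone or a pool. The labels call the samples tumor cells, but RNA of host cells was measured with that of the tumor cells. Each column is a separate tumor by its label, and p-values measure the spread between these tumors. Whether the tumors of a group came from separate mice is not stated.

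The total count was 14753922 to 19595821 in sgCon against 12185383 to 18395558 in sgTaz tumors. Values are CPM, counts scaled to a common library size after TMM normalization, and the 14816 genes with enough reads were compared by edgeR's quasi-likelihood test, with p adjusted over all of them and 0.05 as the threshold. Wwtr1 was at 163.1 ± 30.2 CPM (SD, n = 5) in sgCon and 108.1 ± 19.2 CPM (SD, n = 5) in sgTaz tumors, with overlapping groups. The summed CPM of 7 epithelial tumor cell markers was 1937 to 3966 in sgCon against 1409 to 2924 in sgTaz tumors. The summed CPM of 7 markers of lymph node stroma was between 40.0 and 807 in sgCon tumors, between 1.55 and 7.61 in sgTaz tumors 1 to 4, and 385 in sgTaz tumor 5, which thus stood apart from its group. Without this tumor, the edgeR log2 fold changes of Csf3 and Csf2 were -0.68 (adjusted p = 0.299) and -0.34 (adjusted p = 0.715), that of Csf2ra was 0.23 (adjusted p = 0.356), and those of the other members are given with their values.

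All 9 genes passed the filter on low counts, and 0 of the 9 passed the adjusted threshold of edgeR in either direction, where 0.00675% of all genes tested were called higher and 0% lower. At an unadjusted p below 0.05, Csf1r and Csf1 were higher in sgTaz tumors (2 of 9, with 9.86% of all genes) and Csf3 was lower (1 of 9, with 11.9% of all genes). DESeq2 called 1 of the 9 higher, Csf1r, with 3.38% of all genes, and 0 lower, with 3.5%. Without adjustment, DESeq2 had the same 2 members higher, with 9.86% of all genes, and Csf3 lower, with 10.9%. With limma-voom, Csf1r was called higher, with 4.63% of all genes, and Csf3 lower, with 5.8%. No further member was added by limma-voom without adjustment, where 14% of all genes were higher and 16.8% lower. The exact permutation test was below 0.05 before adjustment for 1 member, Csf1r, with 17.6% of all genes, and after adjustment for 0% of them. By the sign of the edgeR fold change, 5 members were higher and 4 lower in sgTaz tumors, beside 47% and 53% of all genes tested. The median log2 fold change was 0.04 over the members and -0.02 over all genes tested. For 0 of the 9 did the groups separate without overlap, where this held for 2.44% of all genes tested with sgTaz above and 2.13% with sgTaz below.

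**Figure D1:**
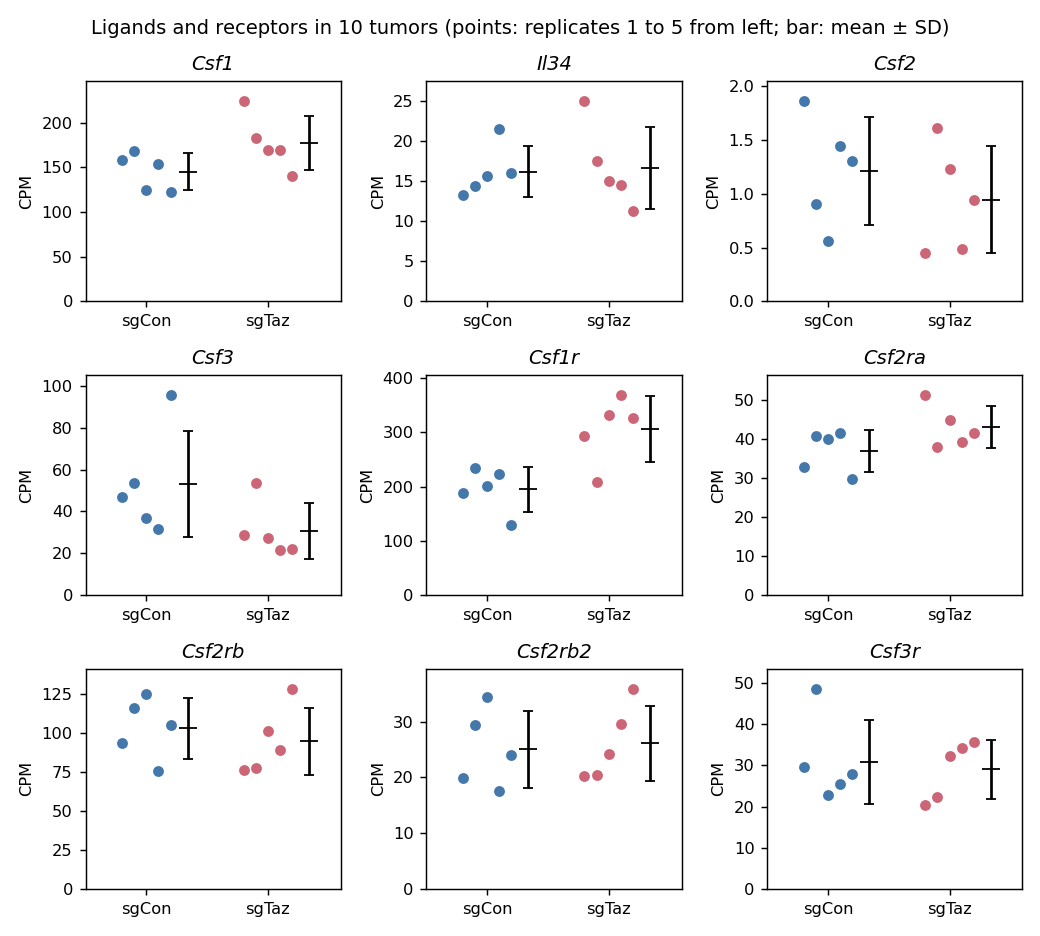
CPM of the 4 ligands and 5 receptors in each tumor, with replicates 1 to 5 of a group from left to right and the mean ± SD of the group beside them, on axes that start at 0. Csf1r and Csf1 are each higher in 4 of the 5 sgTaz tumors than in any sgCon tumor, Csf3 is lower in 4 of the 5 sgTaz tumors than in any sgCon tumor, and the other 6 genes overlap more widely.

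Among the ligands, Csf1 (ENSMUSG00000014599.10, chromosome 3 of mm10, 107741048 to 107760469, minus strand) had the most reads. In the order of their replicate numbers, its CPM were 159, 168, 124, 154 and 122 in sgCon and 224, 182, 169, 169.9 and 140.4 in sgTaz tumors. Thus 4 of the 5 sgTaz tumors were above every sgCon tumor, while sgTaz tumor 5 lay within the sgCon range. The mean was 145 ± 20.9 CPM (SD, n = 5) in sgCon and 177 ± 30.5 CPM (SD, n = 5) in sgTaz tumors, a log2 fold change of 0.29 with a standard error (SE) of 0.13, which did not pass edgeR's test (adjusted p = 0.229, and 0.0498 before adjustment). Without sgTaz tumor 5 it was 0.36 (edgeR adjusted p = 0.152).

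Il34 (ENSMUSG00000031750.15, chromosome 8, 110741829 to 110805924, minus strand), the second ligand of Csf1r, is known mainly from epidermis and brain, where it maintains resident macrophages. It was at 13.3, 14.4, 15.7, 21.5 and 16.0 CPM in sgCon tumors and at 24.9, 17.4, 14.9, 14.5 and 11.3 CPM in sgTaz tumors. The sgTaz tumors held both the highest and the lowest of the 10 values. The log2 fold change of 0.04 (SE 0.21, edgeR adjusted p = 0.927) turned to -0.15 without sgTaz tumor 1 (edgeR adjusted p = 0.656), and was 0.15 without sgTaz tumor 5 (edgeR adjusted p = 0.690), so no direction can be given. Of its exon bases, 97 lie opposite exons of genes on the other strand, and whether the counting used the strand is not stated in the sources used here.

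Csf3 (ENSMUSG00000038067.2, chromosome 11, 98701263 to 98703629, plus strand), the main inducer of neutrophil production and release, varied widely between tumors. Its CPM were 46.9, 53.5, 37.0, 31.9 and 95.8 in sgCon and 28.6, 53.9, 27.5, 21.8 and 21.8 in sgTaz tumors. Thus 4 sgTaz tumors were below every sgCon tumor, and sgTaz tumor 2 was above every sgCon tumor except tumor 5. The mean was 53.0 ± 25.4 CPM (SD, n = 5) in sgCon and 30.7 ± 13.3 CPM (SD, n = 5) in sgTaz tumors, and the log2 fold change was -0.78 (SE 0.33, edgeR adjusted p = 0.197). With limma-voom, which lowers the weight of noisy tumors, it was -1.05 (adjusted p = 0.0313), and with DESeq2 it was -0.76 (adjusted p = 0.112). A single tumor of either group moved the value. Without sgCon tumor 5 the edgeR log2 fold change was -0.46 (adjusted p = 0.420), and without sgTaz tumor 2 it was -1.09 (adjusted p = 0.0755).

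Csf3 can be made by mammary tumor cells and by stimulated stroma. All 7 epithelial tumor cell markers had lower fitted values in sgTaz tumors, 5 of them at an unadjusted p below 0.05 from edgeR, with 0 past the adjusted threshold and a median log2 fold change of -0.72. The tumor with the highest summed epithelial markers among sgTaz tumors was tumor 2, at 2924 CPM with the others between 1409 and 1747 CPM, and it also had the highest Csf3 of its group. In sgCon tumors the highest epithelial sum was that of tumor 1, at 3966 CPM, and the highest Csf3 that of tumor 5. The part of the tumor cell content in the difference of Csf3 was not tested.

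Csf2 (ENSMUSG00000018916.5, chromosome 11, 54247271 to 54249667, minus strand), the ligand of the Csf2ra and Csf2rb heterodimer, was close to the limit of detection. It had between 6 and 31 counts in a tumor, where 3 counts correspond to between 0.153 and 0.246 CPM. Its CPM were 1.86, 0.90, 0.56, 1.44 and 1.30 in sgCon and 0.45, 1.61, 1.23, 0.49 and 0.95 in sgTaz tumors, and the groups overlapped over most of their range. The log2 fold change of -0.34 had a standard error of 0.41 and did not pass edgeR's test (adjusted p = 0.662). The parts of low counts and of the spread between tumors in this error were not tested. A transcript on the other strand lies opposite 96 of its exon bases.

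Of the receptors, Csf1r (ENSMUSG00000024621.16, chromosome 18, 61100598 to 61132149, plus strand), on which tissue macrophages depend for survival, differed most between the groups. Its CPM were 187, 234, 201, 223 and 129 in sgCon and 294, 208, 332, 369 and 325 in sgTaz tumors. Only sgTaz tumor 2 lay within the sgCon range, and the other 4 were above every sgCon tumor. The mean was 195 ± 41.4 CPM (SD, n = 5) in sgCon and 306 ± 60.7 CPM (SD, n = 5) in sgTaz tumors, 1.57-fold higher in the fit. The log2 fold change was 0.65 (SE 0.18, edgeR adjusted p = 0.101, and 0.00352 before adjustment).

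DESeq2 gave Csf1r a log2 fold change of 0.66 with an adjusted p of 0.0157, and limma-voom 0.77 with an adjusted p of 0.0279. An exact two-sided permutation test of the 10 tumors gave p = 0.0238, and 0.224 after adjustment over all genes of the table. Over the 10 fits that each omit a tumor, the edgeR log2 fold change of Csf1r was between 0.53 and 0.76, and 0.63 without sgTaz tumor 5. Of its exon bases, 873 lie opposite exons of Hmgxb3 on the other strand. Hmgxb3 itself was at 35.0 ± 6.37 CPM (SD, n = 5) in sgCon and 37.0 ± 3.06 CPM (SD, n = 5) in sgTaz tumors, a log2 fold change of 0.08 (edgeR adjusted p = 0.747).

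In whole tumors, a difference in the number of cells of a type and a difference in RNA per cell cannot be told apart. The level of Csf1r was set beside 12 other macrophage markers, among them Adgre1, Mrc1, Cd68 and the C1q chains, which does not separate these either. All 12 had a higher fitted value in sgTaz tumors, 4 of them at an unadjusted p below 0.05 from edgeR and 0 past the adjusted threshold, with a median log2 fold change of 0.46. Their summed CPM was 1852 to 4325 in sgCon against 3400 to 4367 in sgTaz tumors. Apoe was the largest single part of this sum, at 1139 to 2592 CPM in sgCon and 1923 to 2417 CPM in sgTaz tumors (log2 fold change 0.26, edgeR adjusted p = 0.436). On the log2 scale, Csf1r minus the mean of these markers was 1.20 ± 0.22 (SD, n = 5) in sgCon and 1.26 ± 0.23 (SD, n = 5) in sgTaz tumors, and the groups differed by 0.06 (exact permutation test, p = 0.651). Relative to macrophage markers, the difference in Csf1r was thus within the spread between tumors.

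**Figure D2:**
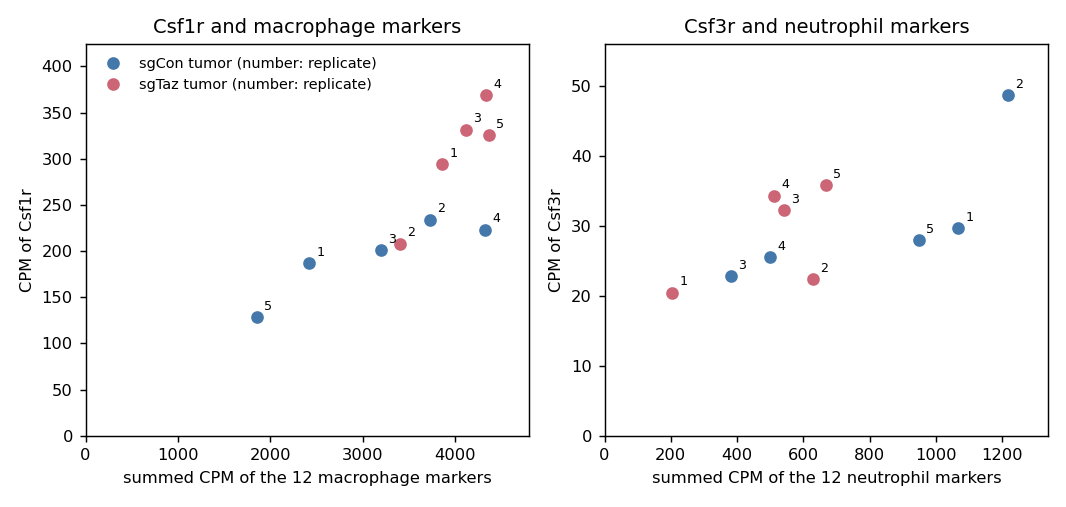
CPM of Csf1r against the summed CPM of 12 macrophage markers (left) and CPM of Csf3r against the summed CPM of 12 neutrophil markers (right), with a point for each tumor labelled by its replicate number and axes that start at 0. On the macrophage axis, the sgTaz tumors lie between 3400 and 4367 CPM and the sgCon tumors between 1852 and 4325 CPM. On the neutrophil axis, the sgTaz tumors lie between 204 and 668 CPM and the sgCon tumors between 382 and 1218 CPM. The groups overlap on both axes. Apoe is the largest single part of the macrophage sum and Mmp9 of the neutrophil sum.

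Csf3r (ENSMUSG00000028859.14, chromosome 4, 126024550 to 126044440, plus strand), the receptor of Csf3 on neutrophils, had similar levels in both groups. Its CPM were 29.6, 48.7, 22.8, 25.5 and 27.9 in sgCon and 20.4, 22.3, 32.2, 34.3 and 35.8 in sgTaz tumors. The mean was 30.9 ± 10.2 CPM (SD, n = 5) in sgCon and 29.0 ± 7.12 CPM (SD, n = 5) in sgTaz tumors, with a log2 fold change of -0.09 (SE 0.22, edgeR adjusted p = 0.841). The value turned to 0.13 without sgCon tumor 2, which had the highest Csf3r of all tumors (edgeR adjusted p = 0.703), and was -0.18 without sgTaz tumor 5 (edgeR adjusted p = 0.708).

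Other genes of neutrophils had lower fitted values in sgTaz tumors. Of the 12 neutrophil markers, among them the calgranulin gene S100a8 and the chemokine receptor gene Cxcr2, 9 passed the filter and all 9 had a lower fitted value in sgTaz tumors, 4 at an unadjusted p below 0.05 from edgeR and 0 past the adjusted threshold. Ly6g, Elane and Mpo were below the filter. The summed CPM of the 12 was 382 to 1218 in sgCon against 204 to 668 in sgTaz tumors. On the log2 scale, Csf3r minus the mean of the 9 markers was 0.21, -0.23, 0.38, 0.65 and 0.38 in sgCon tumors and 2.02, 1.40, 1.38, 1.13 and 0.40 in sgTaz tumors. Thus 4 of the 5 sgTaz tumors were above every sgCon tumor, and sgTaz tumor 5 lay within their range.

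Csf3r itself had a log2 fold change of -0.09, while the 9 neutrophil markers had a median of -0.96. The relative level thus differed by the lower values of the markers and not by a higher Csf3r. The marker list and the test were chosen with earlier results of these data known, which limits the p-values. The difference of 0.99 in this relative level had p = 0.0159 in the exact permutation test, and 0.0317 adjusted over the Csf1r and Csf3r comparisons. With each tumor left out in turn it was between 0.80 and 1.21, and 1.21 without sgTaz tumor 5. With the median of the markers in place of their mean it was 0.93 and no longer passed the test (exact permutation test, p = 0.0794). Whether Csf3r came from cells other than neutrophils was not tested. Monocytes can also carry Csf3r. The summed CPM of 6 monocyte markers was 219 to 445 in sgCon and 268 to 602 in sgTaz tumors, and the groups overlapped. Of these markers, 3 had higher and 3 lower fitted values in sgTaz tumors, with a median log2 fold change of -0.14.

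The receptor chains for Csf2 showed no difference beyond the spread between tumors. Csf2ra (ENSMUSG00000059326.7, chromosome 19, 61223957 to 61228429, minus strand), the ligand-specific alpha chain, was at 32.8, 41.0, 40.0, 41.6 and 29.9 CPM in sgCon tumors and at 51.4, 38.0, 45.0, 39.3 and 41.6 CPM in sgTaz tumors. All 5 sgTaz tumors were above the mean of the sgCon tumors, and 3 were above every sgCon tumor. The log2 fold change was 0.22 (SE 0.12, edgeR adjusted p = 0.312).

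Csf2rb (ENSMUSG00000071713.6, chromosome 15, 78325752 to 78353847, plus strand) and Csf2rb2 (ENSMUSG00000071714.7, chromosome 15, 78282507 to 78305721, minus strand) are neighbours on opposite strands and near copies of each other. Their coding sequences, of 2691 and 2637 bases, were identical at 95.3% of the 2629 aligned bases. Of all stretches of 50 bases in their GENCODE transcripts, 12.3% of those of Csf2rb and 18.4% of those of Csf2rb2 occur in both, so that reads from these parts could be split or dropped by the counting. The pair of windows below shows the stretch of 90 aligned coding bases without gaps in which the copies differ most, at 16 bases in capitals, from coding base 308 to 397 of Csf2rb and from 311 to 400 of Csf2rb2.
Csf2rb: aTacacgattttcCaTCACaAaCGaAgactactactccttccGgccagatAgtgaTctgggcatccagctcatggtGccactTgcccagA
Csf2rb2: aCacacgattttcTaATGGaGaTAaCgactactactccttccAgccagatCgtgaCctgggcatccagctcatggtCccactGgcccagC
In contrast, the 90 bases from coding base 662 of Csf2rb and 665 of Csf2rb2 have 0 differences, and a read that falls within them cannot be placed.
Csf2rb and Csf2rb2: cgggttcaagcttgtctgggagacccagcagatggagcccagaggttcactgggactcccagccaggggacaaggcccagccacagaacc

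With this limit, Csf2rb was at 93.1, 116, 125, 75.3 and 105 CPM in sgCon tumors and at 76.2, 77.3, 101, 88.9 and 128 CPM in sgTaz tumors. Csf2rb2, the chain for interleukin-3, was at 19.8, 29.4, 34.4, 17.5 and 24.0 CPM in sgCon tumors and at 20.3, 20.4, 24.3, 29.6 and 35.9 CPM in sgTaz tumors. The groups overlapped widely for both genes. The log2 fold change was -0.12 for Csf2rb (SE 0.17, edgeR adjusted p = 0.692) and 0.06 for Csf2rb2 (SE 0.21, edgeR adjusted p = 0.896). With the counts of both genes summed, which removes the question of how reads were split between them, it was -0.09 (edgeR adjusted p = 0.798).

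The tumors with the highest values of both beta chains were sgCon tumor 3 and sgTaz tumor 5. They were also those with the highest summed B cell markers among sgCon tumors, at 845 CPM with the others between 65.9 and 371 CPM, and among sgTaz tumors, at 189 CPM with the others between 7.36 and 20.9 CPM. The part of lymphoid tissue in the levels of Csf2rb and Csf2rb2 was not tested. Without sgTaz tumor 5, the log2 fold change of Csf2rb was -0.26 (edgeR adjusted p = 0.352) and that of Csf2rb2 was -0.08 (edgeR adjusted p = 0.855). The share of Csf2rb2 in the counts of the pair was between 17.5% and 21.6% in sgCon and between 19.4% and 24.98% in sgTaz tumors, a quantity chosen after the values had been seen.

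**Figure D3:**
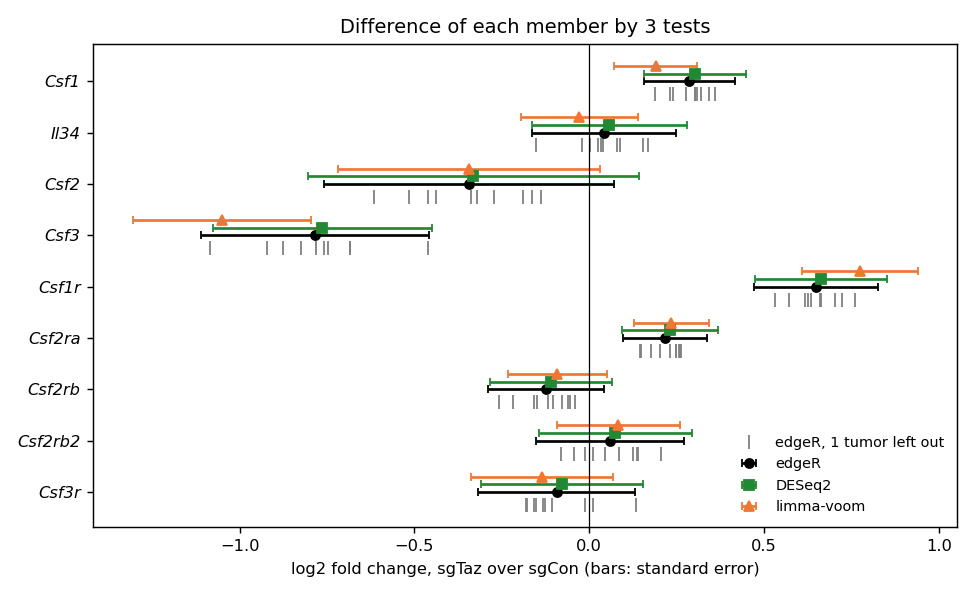
Log2 fold change of each gene, sgTaz over sgCon, by edgeR, DESeq2 and limma-voom with bars for the standard error, and by edgeR with each tumor left out in turn (grey ticks). Csf1r, Csf1 and Csf2ra are to the right of 0 and Csf3, Csf2 and Csf2rb to the left of it in all of these fits, while Il34, Csf2rb2 and Csf3r lie on both sides.

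Compared per kilobase of exon, the members spanned a wide range of levels. Averaged over the 10 tumors, Csf1r was at 43.3 CPM per kb, Csf1 at 30.5 and Csf3 at 29.6, followed by Csf2ra at 13.9, Csf2rb at 13.5, Il34 at 8.37, Csf3r at 8.30, Csf2rb2 at 5.39 and Csf2 at 1.35 CPM per kb. The order of the means of the first 3 differed between the groups. In sgCon tumors Csf3 had the highest mean, 37.5 ± 17.9 CPM per kb (SD, n = 5), with Csf1r at 33.8 ± 7.17 and Csf1 at 27.5 ± 3.95, while in sgTaz tumors it was below both, at 21.7 ± 9.43 CPM per kb (SD, n = 5), with Csf1r at 52.9 ± 10.5 and Csf1 at 33.6 ± 5.77. The place of Csf3 above Csf1r in the sgCon means rested on tumor 5. In sgCon tumors 1 to 5, Csf3 was at 33.19, 37.83, 26.18, 22.55 and 67.8 CPM per kb. Csf1r was at 32.45, 40.56, 34.84, 38.68 and 22.27 CPM per kb in the same tumors. Csf1r was above Csf1 in 9 of the 10 tumors, and the level of Csf3 was above that of Csf2ra in all 10. Some neighbours in this order could not be separated: Csf1 was above Csf3, Csf2ra above Csf2rb, and Il34 above Csf3r in 5 of the 10 tumors each. Csf2 was the lowest in every tumor. The exon lengths are from GENCODE M21, while the methods name another GENCODE release for the counts, and they are unions over all annotated transcripts, which lowers the value per kb of genes with long rarely used exons.

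**Figure D4:**
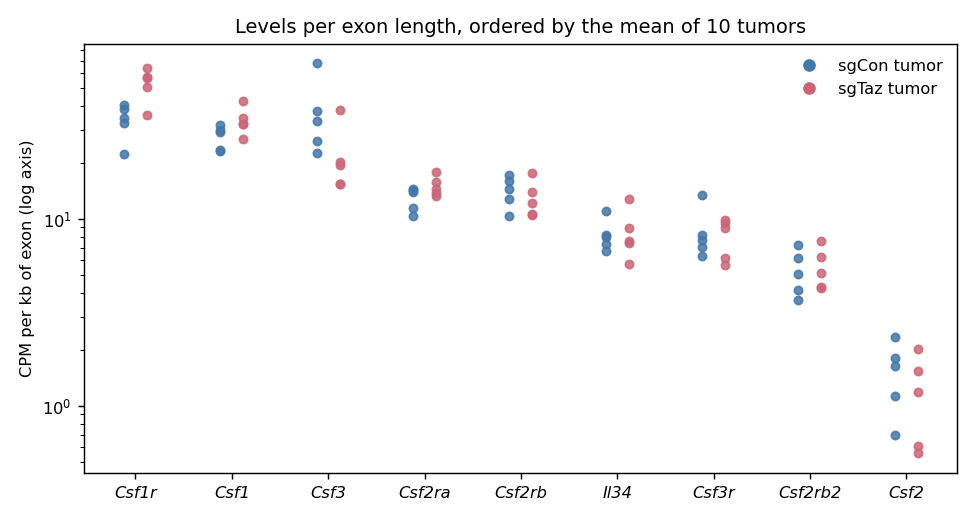
CPM per kb of exon (log axis) of each gene in the 10 tumors, ordered by the mean over all tumors, with sgCon tumors on the left and sgTaz tumors on the right of each position. The means run from 43.3 CPM per kb for Csf1r to 1.35 CPM per kb for Csf2.

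Whether a ligand varied with its receptor from tumor to tumor was asked for 4 pairs over the 10 tumors, on log2 CPM after the group means were taken off. For Csf1 and Csf1r, Pearson's r was 0.169 (permutation p = 0.649, adjusted p = 0.693) and Spearman's rho 0.115 (permutation p = 0.768, adjusted p = 0.869). For Il34 and Csf1r, r was -0.158 (permutation p = 0.679, adjusted p = 0.693) and rho -0.382 (permutation p = 0.311, adjusted p = 0.622). For Csf2 and Csf2ra, r was -0.484 (permutation p = 0.178, adjusted p = 0.693) and rho -0.515 (permutation p = 0.163, adjusted p = 0.622). For Csf3 and Csf3r, r was -0.145 (permutation p = 0.693, adjusted p = 0.693) and rho -0.067 (permutation p = 0.869, adjusted p = 0.869). Without the 2 tumors whose ligand was farthest from its median, r was -0.180, -0.545, -0.510 and -0.012 in the same order, given without a test. Over all 10 tumors, 0 of the 4 relations passed the permutation test, before or after adjustment.

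For each member, the 3 genes with the most similar pattern were taken from 11539 genes with a mean of at least 5 CPM, by Pearson's r of log2 CPM over the 10 tumors after the group means were taken off. These r are the highest of many and describe only these tumors, which share their library with each gene. Csf1r was closest to Mpeg1 (r = 0.996), a pore-forming protein of macrophages, then to Sdc3 (r = 0.972) and C1qtnf9 (r = 0.967). Csf3r was closest to 6430548M08Rik (r = 0.962), to S100a8 (r = 0.954), which encodes a calcium-binding protein abundant in neutrophils, and to Ptx3 (r = 0.933). Csf2rb was closest to Fgr (r = 0.982), a Src-family kinase of myeloid cells, to Ripk3 (r = 0.977) and to the immunoglobulin segment Igkv12-46 (r = 0.966), and Csf2rb2 to Hsd11b1 (r = 0.966), Slc28a2 (r = 0.957) and Smpdl3a (r = 0.953). Csf2ra was closest to Nudt19 (r = 0.953), Smpdl3b (r = 0.953) and Cyb561d2 (r = 0.942).

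Among the ligands, Csf1 was closest to Twsg1 (r = 0.965), a secreted regulator of bone morphogenetic proteins, and to Tpbg (r = 0.965). Il34 was closest to Pdgfa (r = 0.973), a ligand of Pdgfra, to Ipo4 (r = 0.960) and to Fbxo4 (r = 0.960). Csf3 was closest to Noct (r = 0.956), to the lysyl oxidase gene Loxl3 (r = 0.933) and to Med7 (r = 0.928). Csf2, with few counts, was closest to Nr2c1 (r = 0.975), Osgin1 (r = 0.967) and Ncam1 (r = 0.964).

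Of the genes around these factors, 0 passed the adjusted threshold of edgeR in any of the lists that follow. Of the other members of the common beta chain family, only Il3ra passed the filter. Il3ra, the alpha chain for interleukin-3, was at 13.1 ± 4.07 CPM (SD, n = 5) in sgCon and 10.99 ± 2.79 CPM (SD, n = 5) in sgTaz tumors, while Il5 and Il5ra were below the filter. Of the other binding partners of Il34, the proteoglycan gene Sdc1 was at 337 ± 101 CPM (SD, n = 5) in sgCon and 231 ± 96.4 CPM (SD, n = 5) in sgTaz tumors (log2 fold change -0.54, edgeR adjusted p = 0.264), and Ptprz1 was below 1 CPM in every tumor.

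Csf1r belongs to the class III receptor tyrosine kinases, and 4 of the 6 genes of its relatives and their ligands had higher and 2 lower fitted values in sgTaz tumors, with a median log2 fold change of 0.34. Pdgfra, a receptor of fibroblasts, was at 83.9 ± 20.9 CPM (SD, n = 5) in sgCon and 179 ± 61.9 CPM (SD, n = 5) in sgTaz tumors (log2 fold change 1.09, edgeR adjusted p = 0.096). Kitl, the ligand of Kit, and Pdgfrb had log2 fold changes of 0.59 (adjusted p = 0.207) and 0.44 (adjusted p = 0.192) in the same edgeR fit. Flt3l, the ligand that expands dendritic cells, had one of -0.77 (edgeR adjusted p = 0.195).

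Signaling below the receptors was examined in 14 genes of the JAK-STAT pathway and Src-family kinases, of which 7 had higher and 7 lower fitted values in sgTaz tumors, with a median log2 fold change of -0.01. Cish, Socs2 and Pim1 are targets of STAT5, on which receptors of the beta chain family act. They had log2 fold changes of 0.60 for Cish (adjusted p = 0.201), -0.38 for Socs2 (adjusted p = 0.128) and -0.38 for Pim1 (adjusted p = 0.140) from edgeR. Of 8 signaling partners of Csf1r, 3 had higher and 5 lower fitted values, and the smallest unadjusted p were those of the kinase gene Syk (log2 fold change -0.52, edgeR adjusted p = 0.231) and the adaptor gene Dok2 (log2 fold change -0.48, edgeR adjusted p = 0.252).

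Of 9 myeloid transcription factors that passed the filter, 5 had higher and 4 lower fitted values in sgTaz tumors. Mitf, known from osteoclasts and mast cells, was at 13.3 ± 2.44 CPM (SD, n = 5) in sgCon and 19.8 ± 2.80 CPM (SD, n = 5) in sgTaz tumors (log2 fold change 0.57, edgeR adjusted p = 0.101). Every sgTaz tumor was above every sgCon tumor for Mitf, which held for 2.44% of all genes tested. Spi1, the gene of PU.1, which opens the genes of several of these receptors in myeloid cells, had a log2 fold change of 0.16 (edgeR adjusted p = 0.537). Gfi1, a factor of granulocyte differentiation, was at 2.77 ± 1.37 CPM (SD, n = 5) in sgCon and 1.75 ± 0.37 CPM (SD, n = 5) in sgTaz tumors (edgeR adjusted p = 0.255), and Cebpe was below the filter.

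All 5 detected cytokines that induce colony-stimulating factors had lower fitted values in sgTaz tumors, with a median log2 fold change of -0.27. Il1a was at 30.9 ± 12.8 CPM (SD, n = 5) in sgCon and 20.3 ± 9.22 CPM (SD, n = 5) in sgTaz tumors (edgeR adjusted p = 0.364). Il33 was at 34.4 ± 13.1 CPM (SD, n = 5) in sgCon and 27.3 ± 12.8 CPM (SD, n = 5) in sgTaz tumors (edgeR adjusted p = 0.635). Il1b, Tnf and Il6 had log2 fold changes of -0.27, -0.17 and -0.05, with adjusted p from edgeR of 0.671, 0.757 and 0.964.

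Promoter sequences of RefSeq on GRCm38.p6, from 250 bases before to 50 bases after the gene start, were at hand for 5 of the 9 members (Csf1, Csf2, Csf2ra, Csf2rb2 and Csf3r), and letters of 4 known motifs were searched on both strands. GAGGAAG, which PU.1 binds, occurred in Csf3r, Csf2ra and Csf2rb2 and in 13.6% of all 32851 promoters of this length. GGAATG, the core to which the TEAD partners of TAZ bind, occurred in Csf2 and Csf2rb2 and in 14.7% of all promoters. The AP-1 letters TGANTCA occurred in 0 of the 5 and in 7.81% of all promoters. For NF-kB, only a few fixed sequences were searched, and not every form of its consensus. A match to these fixed sequences occurred in Csf1 only among the 5, on the opposite strand at base -154 from the start. Such a match occurred in 0.31% of all promoters. Other forms of the NF-kB site were not searched for in any promoter. A match is a run of letters and not a measured binding site.

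The 60 bases of the receptor promoters that hold the PU.1 letters are shown since these 3 genes share them, with the letters in capitals. They lie at chr4:126024539-126024598 on the plus strand for Csf3r and at chr15:78305852-78305911 on the minus strand for Csf2rb2. In Csf2rb2 the letters are on the opposite strand and occur again at base 28 after the start, outside the bases shown. For Csf2ra the bases lie at chr19:61228419-61228478 on the minus strand, where the letters occur in 2 overlapping copies. Promoter positions are counted from RefSeq starts. The GENCODE starts given above, 126024550 for Csf3r and 61228429 for Csf2ra, fall within the stretches shown.
Csf3r: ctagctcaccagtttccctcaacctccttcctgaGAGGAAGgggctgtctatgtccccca
Csf2rb2: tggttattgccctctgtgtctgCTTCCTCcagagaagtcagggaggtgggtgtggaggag
Csf2ra: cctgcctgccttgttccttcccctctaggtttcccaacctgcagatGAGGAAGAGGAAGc
The 3 genes had fitted log2 fold changes of -0.09 for Csf3r, 0.06 for Csf2rb2 and 0.22 for Csf2ra, none past the threshold of edgeR.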

How the data were processed

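Total RNA of whole 4T1 tumors was sequenced on an Illumina HiSeq. STAR in two-pass mode (mm10) and featureCounts gave the raw gene counts that the authors deposited. Tool versions and the strand setting are not given in the sources used here. Of the table's columns, the 10 tumors were used and 5 further ones were not. Symbols and coordinates came from GENCODE M21, which matched 17860 of the 17864 gene identifiers; the counting used another GENCODE release, per the methods, so exon lengths may differ from those counted.

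Counts were compared in R 4.3.3 with edgeR 4.0.16 (filterByExpr, TMM, glmQLFit, glmQLFTest, Benjamini-Hochberg), with DESeq2 1.42.0 and limma 3.58.1 as alternatives. CPM and log2 CPM (prior count 2) fed the exact permutation tests of 252 splits, whose smallest p is 0.00794, and the 100000 within-group permutations of ligand and receptor pairs, run with scipy 1.17.1 under Python 3.11.15. At these depths, 3 counts are 0.153 to 0.246 CPM, a limit for counting error only. The scripts were tested on simulated data. Tumors of the same group differed by more than sampling noise in all 20 pairs (chi-square per degree of freedom of at least 6.42).

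The members, the gene lists and the tests were chosen with earlier results of these data known. Named in the text are the 9 members, Wwtr1, up to 4 genes per pathway list by the smallest unadjusted p, and the 3 genes most like each member, of which a few are not reported here; Hmgxb3, Spi1, Ptprz1, Cebpe and the other genes with values were named after these were seen. Other settings tried were RLE or upper-quartile scaling in edgeR, DESeq2, limma-voom with quality weights, omitting the filter, at least 10 counts in every tumor, a replicate block, each tumor left out, a prior count of 0.5 and the median over markers.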

Additional observations from a re-analysis of the deposited data

Results flagged for a closer look

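Of the 28 sets of values examined, each over 5 tumors of 1 group, 2 had a single distant tumor, and chance flags about 1 in 20 such sets. Csf3 was at 53.9 CPM in sgTaz tumor 2, with the other sgTaz tumors between 21.8 and 28.6 CPM. Csf3r was at 48.7 CPM in sgCon tumor 2, with the other sgCon tumors between 22.8 and 29.6 CPM. Beside the first value, the summed epithelial markers of sgTaz tumor 2 were 2924 CPM, the highest of its group, and beside the second, the summed neutrophil markers of sgCon tumor 2 were 1218 CPM, the highest of all tumors; the part of either cell type was not tested.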

How the results depend on the processing

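Over 160 fits of single members under other settings, 149 kept both the direction and the side of the threshold, 3 newly passed it and 8 turned in direction. Those that passed were Csf1r with DESeq2 and limma-voom and Csf3 with limma-voom, so that DESeq2 called 1 member higher and limma-voom 1 higher and 1 lower. Il34 turned to -0.028 with limma-voom, -0.02 without sgCon tumor 1 and -0.15 without sgTaz tumor 1, and without single tumors it was at most 0.167. Csf2rb2 turned to -0.01 without sgCon tumor 1, -0.04 without sgCon tumor 4 and -0.0815 without sgTaz tumor 5, and was at most 0.205. Csf3r turned to 0.13 without sgCon tumor 2 and 0.012 without sgTaz tumor 1, and was at least -0.181. The causes were not tested.

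Of all genes, DESeq2 called 531 higher and 550 lower, limma-voom 686 and 860, and edgeR 4 and 1 with at least 10 counts in every tumor, 0 higher without a filter (1759 at an unadjusted p below 0.05) and 0 higher with the replicate block (1064 at an unadjusted p below 0.05). Leaving out each tumor, edgeR called between 0 and 42 higher and between 0 and 130 lower. The most came without sgTaz tumor 5 (42 and 130) and without sgTaz tumor 2 (40 and 35), and without sgCon tumor 3 there were 3 and 2, without sgCon tumor 4 there were 4 and 1. Called members numbered 0 in each of these edgeR fits, the block included. Csf2 could not be fitted with at least 10 counts in every tumor.

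For Csf1r relative to macrophage markers, the difference was -0.028 with the median of the markers (exact permutation test, p = 0.714). It was between 0.0079 and 0.152 with each tumor left out. For Csf3r relative to neutrophil markers, the difference was 0.93 with the median of the markers (exact permutation test, p = 0.0794), and with pairing by replicate number it stayed at 0.99, where an exact sign-flip test gave p = 0.0625, the smallest that 5 pairs allow. With each tumor left out, r was between -0.166 and 0.302 for Csf1 and Csf1r, turning negative without sgCon tumor 5, and between -0.290 and 0.084 for Csf3 and Csf3r, turning positive without sgTaz tumor 2; this leaving out was chosen after seeing the data, as was the sum of Csf2rb and Csf2rb2. Same-numbered tumors of the 2 groups did not deviate together (r between -0.243 and 0.221), so that the numbers were not read as pairs. Among the members, Csf2 had the fewest counts, between 6 and 31 in a tumor.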

Other observations

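The balance between the receptors of the macrophage and of the neutrophil lineage was looked at after the values had been seen, and therefore without a test. Counts of Csf1r per count of Csf3r were 6.33, 4.81, 8.84, 8.75 and 4.603 in sgCon tumors and 14.4, 9.31, 10.3, 10.8 and 9.09 in sgTaz tumors 1 to 5. The lowest sgTaz ratio was 9.09 and the highest sgCon ratio 8.84. This ratio was picked from many possible ones, and how often ratios of other gene pairs separate the groups was not computed, so nothing is read from it. The ratio does not depend on the library size or the normalization, and sgTaz tumor 5, which stood apart by its lymph node markers, gave that lowest value. Counts of Csf1 per count of Il34 were between 7.16 and 11.9 in sgCon and between 8.99 and 12.4 in sgTaz tumors, which overlapped.

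Summed markers of further cell types are given here as values, and 0 of their genes passed the adjusted threshold of edgeR. The 8 markers of mast cells, basophils and eosinophils, which respond to the beta chain cytokines, were at 11.4 to 37.3 CPM in sgCon and 24.4 to 62.4 CPM in sgTaz tumors, with 5 of the 6 tested higher. The 8 dendritic cell markers were at 101 to 253 CPM in sgCon and 104 to 185 CPM in sgTaz tumors, with 4 higher and 4 lower. The 7 T cell markers were at 123 to 781 CPM in sgCon and 93.1 to 236 CPM in sgTaz tumors, with all 7 lower, and at no more than 129 CPM in sgTaz tumors without tumor 5. Fibroblast markers were at 1188 to 3248 CPM in sgCon and 1299 to 2775 CPM in sgTaz tumors, endothelial markers at 319 to 397 and 252 to 533 CPM, and adipocyte markers at 50.9 to 93.7 and 35.3 to 176 CPM.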
